A study of Mus musculus with 12 samples.

Results

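The cartilage matrix genes were 10 genes of the 18996 in the deposited table, taken by their gene symbols: the collagen genes *Col2a1*, *Col9a1*, *Col9a2* and *Col9a3*, the proteoglycan genes *Acan* and *Epyc*, *Chad*, *Matn3* and *Comp*, which encode noncollagenous proteins of the matrix, and *Sox9*, which encodes a transcription factor and is in the set as a regulator. The members were chosen by their CPM in these 12 mice and by the differences between the 3 groups, so their levels and group differences are given as a description. No p-value is printed for a single member, and nothing is read from the counts of members called. RNA was sequenced from 12 BALB/c mice aged 5 to 7 weeks, 4 in each of 3 groups, taken at day 7 after surgery where surgery was done. Mice of the No operation group had no surgery, and their samples were paraspinal soft tissue. SHAM mice had paraspinal soft tissue removed with the laminae left in place, and Laminectomy mice had the laminae cut away so that the dura was exposed; samples of both surgical groups held soft and scar tissue. Sex is not given in the labels, and no sample carried a genetic change by its label. The study's text names fewer mice per group than the labels do; the labels number 4 samples in each group, which were taken as separate mice, and all were used.

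Cartilage is a sparse population of chondrocytes in a matrix that these cells secrete. Fibrils of type II collagen, with type IX collagen on their surface and type XI collagen in their core, give the matrix its tensile strength, while aggrecan binds water and resists compression. SOX9 drives the chondrocyte program together with SOX5 and SOX6, and it binds enhancers of *Col2a1*, *Acan* and the type IX collagen genes. Vertebral laminae, facet joints and growth plates are all close to the surgical field, and *Comp* and *Chad* are also known from tendon, so these genes in bulk tissue can come from more than a single source.

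The type II and type IX collagen genes and *Acan* had their highest levels after laminectomy, whereas *Chad* and *Epyc* had theirs in tissue without surgery. *Sox9* was ordered No operation, SHAM, Laminectomy with no overlap between the mice of any of the 3 groups. Between Laminectomy and SHAM, all 10 genes had a higher mean after laminectomy, with log2 fold changes from 1.08 for *Sox9* to 3.88 for *Col2a1*. Levels are given as CPM (counts of each library scaled to a common total, with TMM factors), and the fold changes are from edgeR. Each fold change is given with a standard error (SE), which the edgeR test does not report. The SE was worked back from the fold change and the F value of its quasi-likelihood test, so it is approximate.

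Sequence just before the start of the gene is shown for *Chad* and *Epyc*, which were lower after both operations, and for *Acan*, *Col9a1* and *Col9a2*, whose means were higher after laminectomy. Each window is the 250 bases before the RefSeq start on GRCm38.p6, written 5′ to 3′ on the strand of the gene, from the first start listed where a gene had several. The gene spans given further on follow GENCODE, and the RefSeq start of *Col9a2* lies inside its GENCODE span, so most of that window lies within the span. Capitals mark a TATAAA match on the given strand, or a match on either strand to a SOX core, searched as 2 letters that were each A or T, then CAA, then A or T, then G; TATAAA and this core share no letters at any place shown. A window for *Col2a1*, *Col9a3*, *Comp* and *Sox9* was not used here.
*Chad*, chr11:94564797-94565046, + strand: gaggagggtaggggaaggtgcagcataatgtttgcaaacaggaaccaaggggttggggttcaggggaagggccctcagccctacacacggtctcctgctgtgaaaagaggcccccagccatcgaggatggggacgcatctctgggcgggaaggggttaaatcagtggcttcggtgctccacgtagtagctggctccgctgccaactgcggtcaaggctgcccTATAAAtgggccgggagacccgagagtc
*Epyc*, chr10:97643818-97644067, + strand: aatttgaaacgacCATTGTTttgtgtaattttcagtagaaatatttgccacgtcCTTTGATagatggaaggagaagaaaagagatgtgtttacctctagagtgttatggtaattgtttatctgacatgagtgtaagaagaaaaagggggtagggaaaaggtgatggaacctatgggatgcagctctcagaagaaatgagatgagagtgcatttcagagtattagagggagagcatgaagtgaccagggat
*Acan*, chr7:79052976-79053225, + strand: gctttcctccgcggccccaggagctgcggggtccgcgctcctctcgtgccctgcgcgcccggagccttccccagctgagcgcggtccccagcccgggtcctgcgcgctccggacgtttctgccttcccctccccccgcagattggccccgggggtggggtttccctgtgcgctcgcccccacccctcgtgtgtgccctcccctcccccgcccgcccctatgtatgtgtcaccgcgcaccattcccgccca
*Col9a1*, chr1:24177360-24177609, + strand: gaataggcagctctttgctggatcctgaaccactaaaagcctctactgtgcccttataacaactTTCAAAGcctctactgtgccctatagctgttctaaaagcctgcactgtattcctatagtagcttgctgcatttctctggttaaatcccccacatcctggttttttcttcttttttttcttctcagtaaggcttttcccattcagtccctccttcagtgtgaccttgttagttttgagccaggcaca
*Col9a2*, chr4:121039316-121039565, + strand: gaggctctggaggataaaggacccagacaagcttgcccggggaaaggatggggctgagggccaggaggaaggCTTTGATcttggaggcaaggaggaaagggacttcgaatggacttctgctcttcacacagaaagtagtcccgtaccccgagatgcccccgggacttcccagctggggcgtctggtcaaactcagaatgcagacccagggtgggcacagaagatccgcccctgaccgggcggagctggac
The *Chad* window held TATAAA 28 bases before the start, a match found in 7.59% of the 32851 windows of this length. SOX core letters stood 186 bases before the start in *Col9a1*, 178 in *Col9a2*, and 237 and 196 in *Epyc*, and such a match was found in 21.8% of all windows. The windows of *Acan*, *Matn3* and *Chad* held no SOX core. GC content was 74.4% in *Acan*, 60.4% in *Chad* and *Col9a2*, 43.6% in *Col9a1* and 39.2% in *Epyc*, against a median of 52.4% over all windows. These matches describe the letters only, since binding was not measured.

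Libraries held between 16802988 and 18077863 counts per mouse, and TMM factors ranged from 0.849 to 1.134. All 10 genes passed the filter on low counts, which left 14765 genes. *Epyc* was the shallowest of the set, with 0 to 73 counts per mouse, and *Col9a1* had 1 count in SHAM replicate 1 and 2 counts in No operation replicate 1. *Col2a1*, in contrast, reached 13549 counts in Laminectomy replicate 2. In bulk tissue, fewer cells of a type and less RNA per cell cannot be told apart.

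*Col2a1*, the chain of type II collagen (gene 12824, chromosome 15, 97975602 to 98004695, minus strand, GRCm38), measured 2.07, 188, 46.8 and 3.43 CPM in the 4 No operation mice, in order of replicate number. It measured 0.45, 1.82, 55.3 and 15.5 CPM after the sham operation and 173, 697, 158 and 53.9 CPM after laminectomy. Mice of a single group differed widely for this gene: the highest No operation mouse was 91.1 times the lowest, the highest SHAM mouse 123 times and the highest Laminectomy mouse 12.9 times. Laminectomy mice overlapped both other groups, since replicates 1, 3 and 4 lay below No operation replicate 2, and replicate 4 also below SHAM replicate 3. The log2 fold change was -1.72 (SE 1.46) for SHAM against No operation, 2.17 (SE 1.46) for Laminectomy against No operation and 3.88 (SE 1.58) for Laminectomy against SHAM. Without No operation replicate 2, the value for SHAM against No operation was 0.07, so its sign rested on that mouse, and without SHAM replicate 3 it was -3.34. Laminectomy against No operation gave 1.09 without Laminectomy replicate 2 and 3.95 without No operation replicate 2. Laminectomy against SHAM gave 2.81 without Laminectomy replicate 2 and 5.5 without SHAM replicate 3.

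The 3 type IX collagen genes, whose chains form a trimer that decorates type II fibrils, lie on different chromosomes. *Col9a1* (gene 12839, chromosome 1, 24177610 to 24252684, plus strand) measured 0.138, 13.4, 2.66 and 0.421 CPM without operation, 0.0562, 1.34, 5.35 and 1.92 CPM in the SHAM group and 24.8, 58.1, 17.4 and 10.7 CPM after laminectomy. Every Laminectomy mouse was above every SHAM mouse, while No operation replicate 2 was above the lowest Laminectomy mouse. *Col9a2* (gene 12840, chromosome 4, 121039385 to 121055322, plus strand) measured 0.689, 14.5, 4.33 and 1.89 CPM without operation, 1.24, 4.6, 5.83 and 3.15 CPM in the SHAM group and 24.4, 44.7, 17 and 12.9 CPM after laminectomy. Its groups stood as those of *Col9a1* did, with the same No operation mouse inside the Laminectomy range. The log2 fold changes of Laminectomy against No operation were 2.73 (SE 1.13) for *Col9a1* and 2.20 (SE 0.767) for *Col9a2*, and those against SHAM were 3.67 (SE 1.19) and 2.74 (SE 0.784). For SHAM against No operation, *Col9a1* gave -0.94 (SE 1.14) and *Col9a2* -0.53 (SE 0.765), which turned to 1 and 0.68 without No operation replicate 2. Without that mouse, Laminectomy against No operation gave 4.67 for *Col9a1* and 3.41 for *Col9a2*. *Col9a1* also moved without Laminectomy replicate 2, to 2.08 against No operation and 3.02 against SHAM, and without SHAM replicate 3, to -1.90 for SHAM against No operation and 4.63 for Laminectomy against SHAM.

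*Col9a3* (gene 12841, chromosome 2, 180597790 to 180622189, plus strand) measured 1.24, 6.99, 2.6 and 1.26 CPM without operation and 2.75, 3.8, 4.4 and 2.03 CPM in SHAM mice. After laminectomy it measured 20.6, 38.6, 15 and 9.64 CPM. All 4 Laminectomy mice were above all 8 others, with log2 fold changes of 2.78 (SE 0.589) against No operation and 2.69 (SE 0.583) against SHAM. SHAM against No operation gave 0.09 (SE 0.578), and without No operation replicate 2 this was 0.93 and Laminectomy against No operation 3.61. Exons of this gene share 234 bases with *Tcfl5* on the opposite strand, and *Tcfl5* measured 7.2 to 10.7 CPM in SHAM mice against 0.0701 to 2.96 CPM without operation and 3.75 to 4.92 CPM after laminectomy. *Col9a3* per *Col9a2*, both per kilobase of exon, was 1.79 in SHAM replicate 1 and 1.45 in No operation replicate 1. These mice had the highest *Tcfl5* of their groups (10.7 and 2.96 CPM) and also the lowest *Col9a2* (1.24 and 0.689 CPM). The ratio was 0.517 in SHAM replicate 4, where *Tcfl5* was 9.93 CPM, and 0.606 and 0.663 in the other SHAM mice. In the other mice without operation it was 0.388 to 0.536, and after laminectomy 0.602 to 0.708. Whether reads of *Tcfl5* enter the *Col9a3* values was not tested.

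**Figure D1:**
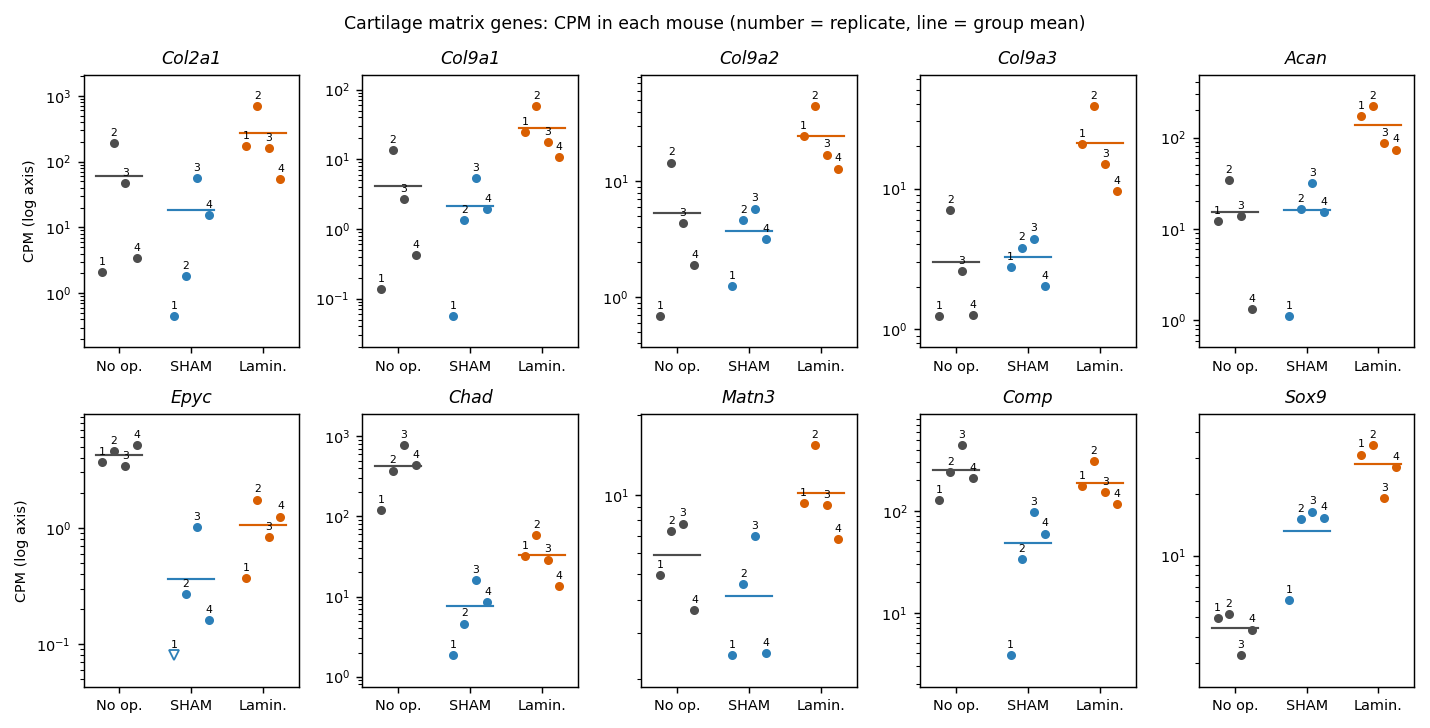
CPM of the 10 cartilage matrix genes in each of 12 mice (log axis, separate for each gene), with points numbered by replicate, a line at the group mean, and an open triangle for a count of 0 drawn below the lowest value. Laminectomy replicate 2 is the highest Laminectomy mouse in all 10 panels, and the *Sox9* groups do not overlap.

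*Acan*, which encodes aggrecan, the large water-binding proteoglycan (gene 11595, chromosome 7, 79053483 to 79115099, plus strand), measured 12.1, 34.1, 13.7 and 1.33 CPM without operation and 1.12, 16.6, 31.7 and 15.2 CPM in SHAM mice. After laminectomy it measured 172, 221, 87 and 73.9 CPM. The 4 Laminectomy mice were all above the 8 others, and the No operation and SHAM mice overlapped. Its log2 fold change was 3.17 (SE 0.901) against No operation and 3.10 (SE 0.896) against SHAM, while SHAM against No operation gave 0.08 (SE 0.849), a value that fell to between -0.48 and -0.02 in 3 of the fits with a mouse left out. Without No operation replicate 2 it was 0.83, and Laminectomy against No operation was 3.93.

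*Epyc*, which encodes the small leucine-rich proteoglycan epiphycan (gene 13516, chromosome 10, 97644068 to 97682454, plus strand), went the other way. It measured 3.65, 4.6, 3.4 and 5.12 CPM without operation, 0, 0.267, 1.01 and 0.16 CPM in the SHAM group and 0.371, 1.75, 0.829 and 1.25 CPM after laminectomy. Every mouse without operation was above every operated mouse, and the 2 operated groups overlapped. SHAM replicate 1 had no count, which allows a level of up to 0.169 CPM (3 counts of its library, counting error only). Log2 fold changes were -3.51 (SE 0.752) for SHAM and -1.99 (SE 0.682) for Laminectomy against No operation, and 1.52 (SE 0.746) for Laminectomy against SHAM. Without SHAM replicate 3, SHAM against No operation gave -4.79 and Laminectomy against SHAM 2.81. Exons of *Epyc* share 1041 bases with the noncoding gene *Gm10754* on the opposite strand, and reads of the latter cannot be told apart from its own without knowing that the counting used strand.

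*Chad*, which encodes chondroadherin, a leucine-rich protein that binds collagen and integrins (gene 12643, chromosome 11, 94565047 to 94569127, plus strand), had the widest difference between groups. It measured 119, 373, 774 and 434 CPM without operation, 1.85, 4.6, 15.9 and 8.49 CPM in the SHAM group and 32.3, 59.1, 29 and 13.4 CPM after laminectomy. Mice without operation were above all operated mice, and only SHAM replicate 3 reached into the Laminectomy range. The log2 fold change was -5.78 (SE 0.795) for SHAM against No operation, -3.67 (SE 0.715) for Laminectomy against No operation and 2.11 (SE 0.685) for Laminectomy against SHAM. Without SHAM replicate 3 the first was -6.41 and the last 2.74.

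*Comp*, which encodes cartilage oligomeric matrix protein, a pentamer that bridges collagen fibrils (gene 12845, chromosome 8, 70373558 to 70382066, plus strand), shared the SHAM decrease but not the Laminectomy one. It measured 127, 239, 440 and 211 CPM without operation, 3.82, 33.5, 96.8 and 59.8 CPM in the SHAM group and 174, 308, 153 and 116 CPM after laminectomy. SHAM mice were below all others, and the Laminectomy and No operation mice overlapped. Log2 fold changes were -2.39 (SE 0.722) for SHAM and -0.44 (SE 0.687) for Laminectomy against No operation, and 1.95 (SE 0.711) for Laminectomy against SHAM.

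*Matn3*, which encodes matrilin-3, an adapter that links collagens and proteoglycans (gene 17182, chromosome 12, 8947929 to 8972028, plus strand), measured 4.96, 7.31, 7.79 and 3.65 CPM without operation, 2.47, 4.6, 6.99 and 2.51 CPM in the SHAM group and 9.32, 15.4, 9.17 and 6.78 CPM after laminectomy. The lowest Laminectomy mouse lay inside the ranges of both other groups. Log2 fold changes were -0.52 (SE 0.385), 0.78 (SE 0.38) and 1.29 (SE 0.385) for SHAM against No operation, Laminectomy against No operation and Laminectomy against SHAM.

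*Sox9*, the regulator of the set (gene 20682, chromosome 11, 112782224 to 112787760, plus strand), measured 4.96, 5.16, 3.26 and 4.35 CPM without operation, 6.07, 15.1, 16.4 and 15.3 CPM in the SHAM group and 31.1, 34.5, 19.1 and 27.1 CPM after laminectomy. The SHAM mice were all above the mice without operation, and the Laminectomy mice all above the SHAM mice. The log2 fold changes were 1.57 (SE 0.302), 2.65 (SE 0.309) and 1.08 (SE 0.288) for SHAM against No operation, Laminectomy against No operation and Laminectomy against SHAM, with the smallest SEs of the set.

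A gene was called at an adjusted p below 0.05 (edgeR quasi-likelihood test, Benjamini-Hochberg adjustment over 14765 genes) and an absolute log2 fold change above 0.5. For SHAM against No operation, 4 of the 10 genes were called, *Sox9* higher and *Comp*, *Chad* and *Epyc* lower, where 50.8% of all genes were called (25.7% higher and 25.1% lower). DESeq2 called the same 4, where it called 52.1% of all genes, and 4 had an unadjusted edgeR p below 0.05, where 65.7% of all genes did. For Laminectomy against No operation, 6 were called, *Acan*, *Sox9*, *Col9a2* and *Col9a3* higher and *Chad* and *Epyc* lower, where 48.6% of all genes were called (24.2% higher and 24.4% lower). DESeq2 added *Col9a1*, which made 7, where it called 49.8% of all genes, and 7 had an unadjusted edgeR p below 0.05, where 64% of all genes did. Groups without overlap numbered 1 higher and 3 lower for SHAM (26.7% and 27.8% of all genes) and 3 higher and 2 lower for Laminectomy against No operation (27% and 29% of all genes). Because the choice of these genes drew on the same contrasts, nothing is read from these shares. Leaving out No operation replicate 4 took *Col9a2* and *Epyc* out of the Laminectomy calls and left 4. The median log2 fold change of the 10 genes was -0.74 for SHAM and 2.18 for Laminectomy against No operation, beside 0 and 0.01 over all genes. Both comparisons use the same No operation mice.

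For Laminectomy against SHAM, edgeR called none of the 10 genes and 0% of all genes. By the same edgeR fit, 9 of the 10 genes had an unadjusted p below 0.05, where 16% of all genes did. DESeq2 called 6, *Acan*, *Chad*, *Col9a2*, *Col9a3*, *Matn3* and *Sox9*, where it called 4.08% of all genes. The median log2 fold change over the 10 genes was 2.4, beside 0 over all genes. The Laminectomy mice were above all SHAM mice for 6 of them, *Acan*, *Sox9*, *Col9a1*, *Col9a2*, *Col9a3* and *Comp*, where 5.05% of all genes showed this, and none of the 10 was below all SHAM mice, where 5.07% were. This contrast too entered the choice of the genes, so these shares are a description and nothing is read from them.

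**Figure D2:**
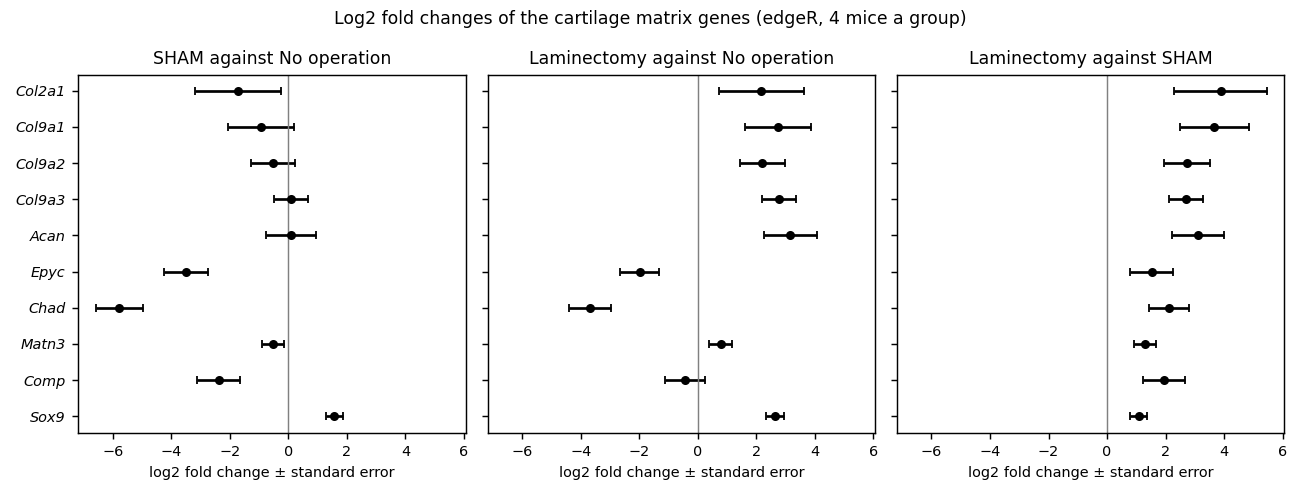
Log2 fold changes (points) of the 10 genes in the 3 group comparisons, from edgeR with 4 mice a group. Bars are approximate standard errors, worked back from each fold change and its test. All 10 points lie above 0 for Laminectomy against SHAM, and *Chad* lies at -5.78 for SHAM against No operation.

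Per kilobase of exon, the order of the 10 genes differed between groups. Without operation *Chad* led at 253 ± 160 CPM per kb (SD, n = 4), followed by *Comp* at 85.7 ± 44.7, and *Col2a1* came next at 6.51 ± 9.52. In SHAM mice *Comp* led at 16.3 ± 13.3 CPM per kb, with *Chad* at 4.6 ± 3.64 and *Sox9* at 3.19 ± 1.16. After laminectomy *Comp* stood at 63.2 ± 28.2, *Col2a1* at 29.2 ± 31.3, *Chad* at 19.9 ± 11.3 and *Acan* at 18.5 ± 9.38 CPM per kb, and *Epyc* was last at 0.41 ± 0.23. After laminectomy, neighbours from *Col2a1* down to *Acan* differed by less than the larger of their SDs, as did those from *Col9a2* (7.99) through *Sox9*, *Col9a1* and *Col9a3* to *Matn3* (3.37). In SHAM mice all neighbours did, and without operation all did but *Chad* and *Comp*, *Comp* and *Col2a1*, and *Epyc* and *Sox9*.

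As a share of the summed level per kilobase, *Chad* made up 58.9% to 77% in mice without operation, 11.2% to 18.4% in SHAM mice and 9.91% to 14.5% after laminectomy. *Col2a1* made up 7.22% to 25.6% after laminectomy, against 0.111% to 5.96% without operation and 0.804% to 9.49% in SHAM mice. *Acan* made up 9.83% to 15.5% after laminectomy, 2.51% to 9.07% in SHAM mice and 0.0532% to 1.35% without operation. *Comp* made up 21.2% to 35.6% without operation, 21.5% to 56.9% in SHAM mice and 35.3% to 48.2% after laminectomy. The ratio of *Chad* to *Comp* ran from 1.66 to 3.63 without operation, from 0.242 to 0.857 in SHAM mice and from 0.206 to 0.339 after laminectomy.

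**Figure D3:**
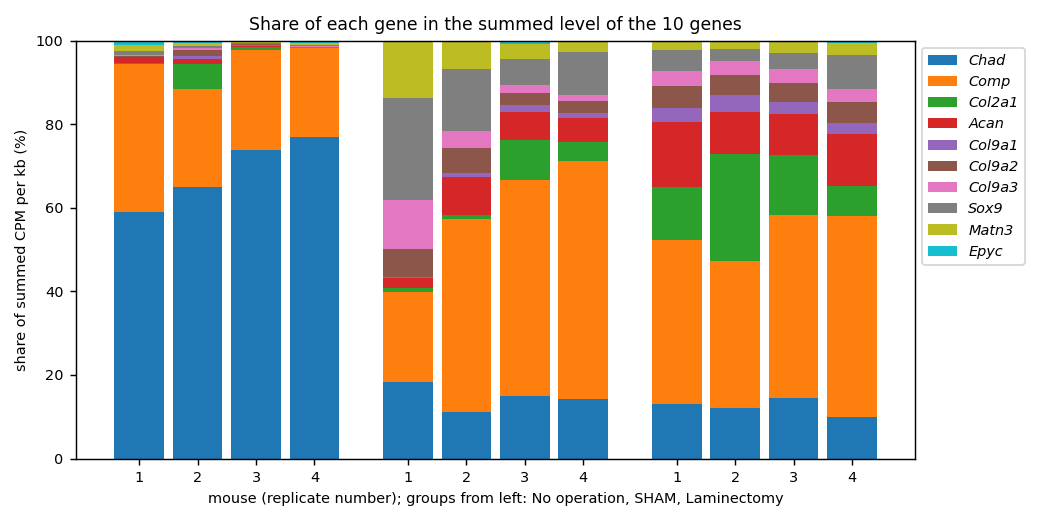
Share of each of the 10 genes in their summed CPM per kb (%), 1 bar per mouse, with the groups from left to right No operation, SHAM and Laminectomy. *Chad* takes 58.9% to 77% of the bar in every mouse without operation and at most 18.4% in the 8 operated mice.

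The same mice were the highest or the lowest of their group for most of the 10 genes. Laminectomy replicate 2 was the highest of its group for 10 of 10 genes and replicate 4 the lowest for 8. SHAM replicate 3 was the highest for 10 of 10, and replicate 1 the lowest for 9, the exception being *Col9a3*. Among mice without operation, replicate 2 was the highest for *Col2a1*, *Acan*, *Sox9* and the 3 type IX collagen genes, whereas replicate 3 was the highest for *Chad*, *Comp* and *Matn3*. The genes of a mouse share its library and its dissection, so they are not separate observations. The summed CPM of the 10 genes was 19.8 in SHAM replicate 1 and 86.2 to 240 in the other SHAM mice. With SHAM replicate 1 and No operation replicate 2 both left out, a setting chosen after seeing the data, 8 genes were called for Laminectomy against No operation, *Col2a1* and *Col9a1* added, where 50.5% of all genes were called, and the SHAM calls were the same 4 genes, where 49.8% were.

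Markers of tissues next to cartilage moved among the mice as well. The summed CPM of the 8 osteoblast and osteocyte markers was 1.45 to 509 without operation, 1.35 to 109 in SHAM mice and 581 to 1640 after laminectomy, so that the Laminectomy mice lay above all others. *Ibsp*, which encodes bone sialoprotein and was named after its values were seen, made up most of this sum after laminectomy (501 to 1500 CPM). The other 7 markers summed to 73.6 to 208 CPM after laminectomy, 0.965 to 284 without operation and 0.956 to 28.1 in SHAM mice, so that without *Ibsp* the Laminectomy and No operation mice overlapped. No operation replicate 2, the mouse highest for the type II and IX collagens, was also highest in its group for osteoblast markers (509), for the 6 osteoclast markers (731) and for the 8 marrow markers (3190 CPM), while SHAM replicate 1 was lowest in its group for all 3 lists. Osteoclast markers summed to 107 to 731 CPM without operation, 483 to 720 in SHAM mice and 1170 to 2580 after laminectomy, and marrow markers to 35.5 to 3190, 18.5 to 636 and 337 to 2200. None of these markers was at 0 in all mice of a group. Of the osteoclast list, 5 of 6 genes were called higher for Laminectomy against No operation (median log2 fold change 2.73), of the osteoblast list 0 of 8 (0.42) and of the marrow list 0 of 8 (0.01), where 24.2% of all genes were. By DESeq2 these counts were 5, 1 and 0, where 49.8% of all genes were called in either direction, and at an unadjusted edgeR p below 0.05 they were 5, 1 and 0, where 64% of all genes passed. Between Laminectomy and SHAM edgeR called 0 genes of these 3 lists, where it called 0% of all genes. The median log2 fold changes were 1.99, 3.4 and 2.27 for the osteoclast, osteoblast and marrow lists, beside 0 over all genes. All genes of the 3 lists had positive values there. The part of bone and marrow in the cartilage gene values was not tested.

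Tendon and muscle markers are given beside *Chad* and *Comp*. The 6 tendon markers summed to 3140 to 8430 CPM without operation, 304 to 2420 in SHAM mice and 1160 to 2640 after laminectomy, and were highest in No operation replicate 3 and SHAM replicate 3, the mice highest for *Chad* and *Comp*. Lower calls covered 25.1% of all genes in SHAM mice and 24.4% after laminectomy. Of these markers 4 of 6 were called lower in SHAM mice and 2 of 6 after laminectomy, *Kera* and *Fmod*, which encode the collagen-binding proteoglycans keratocan and fibromodulin, in both (edgeR log2 fold changes of -3.70 and -3.60 in SHAM mice, -3.11 and -2.45 after laminectomy). The 8 skeletal muscle fibre markers summed to 77600 to 116000 CPM without operation, 2040 to 8330 in SHAM mice and 2810 to 11600 after laminectomy, and 8 of 8 were called lower in both. Of 5 adipocyte markers 3 were called lower in SHAM mice and 5 after laminectomy, and of 4 Schwann cell markers that passed the filter edgeR and DESeq2 called none, with 0 at an unadjusted p below 0.05. The part of tendon and muscle in the *Chad*, *Comp* and *Epyc* differences was not tested.

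Laminectomy replicate 2, the highest mouse of its group for all 10 genes, was also highest for neural markers. The 5 neuron markers, none of which passed the low-count filter, summed to 199 CPM in that mouse and 47.5 CPM in Laminectomy replicate 3, and to 0.14 to 1.06 CPM in the other 10 mice. The 7 astrocyte and oligodendrocyte markers summed to 182 CPM in replicate 2, against 11.3 to 62 CPM in the other Laminectomy mice, 12.1 to 44.2 CPM in SHAM mice, where *Mobp* and *Olig2* were at 0, and 54 to 68.7 CPM without operation, where *Olig2* was at 0. *Aldh1l1*, which cells outside the nervous system also express, made up 51.6 to 64.7 CPM of the sum without operation, and the other 6 glial markers summed to 2.48 to 5.36 CPM without operation, 2.94 to 4.95 in SHAM mice, 170 and 52.5 in Laminectomy replicates 2 and 3, and 4.02 and 2.39 in replicates 1 and 4. *Acan*, which neural tissue also expresses in its perineuronal nets, measured 172, 221, 87 and 73.9 CPM in the 4 Laminectomy mice, where neuron markers summed to 1.06, 199, 47.5 and 0.626 CPM in the same order. The part of neural tissue in the cartilage gene values was not tested.

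**Figure D4:**
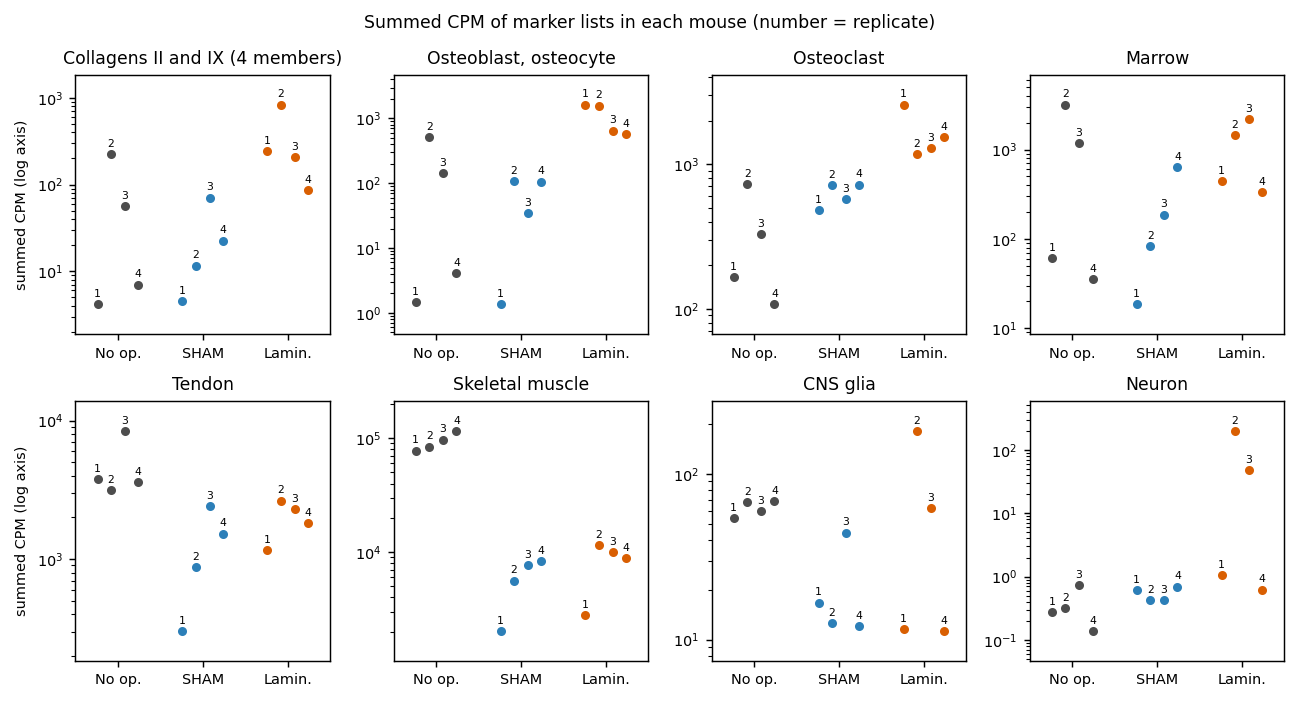
Summed CPM of marker lists (log axis) in each mouse, numbered by replicate, beside the sum of the 4 genes for type II and type IX collagen. Osteoblast and osteoclast sums are higher in all 4 Laminectomy mice than in the other 8, and neuron sums reach 199 in Laminectomy replicate 2.

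Of 20 further cartilage genes, 18 passed the filter. For SHAM against No operation 3 were called higher and 5 lower, where 25.7% and 25.1% of all genes were, with a median log2 fold change of -0.93. For Laminectomy against No operation 5 were called higher and 2 lower, where 24.2% and 24.4% of all genes were, with a median of 0.72. These counts are near those of all genes and are no result about the list. *Sox6*, the partner of *Sox9* that skeletal muscle also expresses, fell in both (log2 fold change -3.44, edgeR adjusted p = 2.51e-05 in SHAM mice and -2.63, adjusted p = 0.00013 after laminectomy). *Sox5*, the other partner, was not called, at 6.39, 7.09 and 6.08 CPM on average without operation, after the sham operation and after laminectomy. *Cilp2*, a cartilage intermediate layer protein, fell in both as *Chad* did (-4.65, edgeR adjusted p = 0.000269, and -3.43, adjusted p = 0.00143).

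The type XI collagen genes encode the core of the type II fibril. *Col11a1* rose against No operation from 158 to 533 CPM (log2 fold change 1.76, edgeR adjusted p = 0.00757), and *Col11a2* fell in SHAM mice from 218 to 39 CPM (-2.49, adjusted p = 0.0203). *Col11a2* after laminectomy, at 279 CPM, was not called against No operation (0.35, SE 0.775). *Col27a1*, a fibrillar collagen of growth plate cartilage, rose in SHAM mice (1.53, adjusted p = 6.3e-05) and after laminectomy (2.04, adjusted p = 1.63e-05 by edgeR). *Hapln1*, the link protein that ties aggrecan to hyaluronan, averaged 3.8 CPM without operation, 1.33 in SHAM mice and 17.8 after laminectomy and was not called by edgeR (adjusted p = 0.0525 for Laminectomy against No operation), whereas DESeq2 called it there. *Prg4*, which encodes lubricin of the joint surface, averaged 887 CPM without operation, 458 in SHAM mice and 512 after laminectomy. It was not called by edgeR in SHAM mice (adjusted p = 0.0854), whereas DESeq2 called it there (adjusted p = 0.0486). *Matn1*, a matrilin of hyaline cartilage, was at 0 in all 4 mice without operation and reached at most 0.169 CPM in any mouse, and was not tested.

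None of these 18 genes was called between Laminectomy and SHAM by edgeR, where 12 had an unadjusted p below 0.05 (16% of all genes did) and DESeq2 called 6 (4.08% of all genes). In this comparison 16 of the 18 log2 fold changes were positive (median 1.45, beside 0 over all genes). The values of *Hapln1* (3.73, SE 0.983) and *Col11a2* (2.84, SE 0.832) were of the size seen for the type IX collagen genes.

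Of 6 genes of the hypertrophic growth plate that passed the filter, 5 were called higher for Laminectomy against No operation, where 24.2% of all genes were, and 1 for SHAM against No operation, where 25.7% were. Between Laminectomy and SHAM edgeR called 0 of 6, with 3 at an unadjusted p below 0.05, and DESeq2 called 2. *Col10a1*, the collagen of hypertrophic chondrocytes, rose from 1.13 to 20.9 CPM (log2 fold change 4.18, edgeR adjusted p = 0.0225) and was highest in Laminectomy replicate 2 at 60.6 CPM. Its groups overlapped, since Laminectomy replicate 4, at 2.61 CPM, was below No operation replicate 2, at 2.83 CPM. *Panx3*, a channel protein of hypertrophic chondrocytes and osteoblasts, rose from 2.18 to 21.9 CPM (3.31, adjusted p = 0.0174 by edgeR). *Runx3*, a transcription factor of chondrocyte maturation that T cells also express, rose in both operated groups (2.23, adjusted p = 0.000953 in SHAM mice and 2.49, adjusted p = 0.000544 after laminectomy by edgeR).

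**Figure D5:**
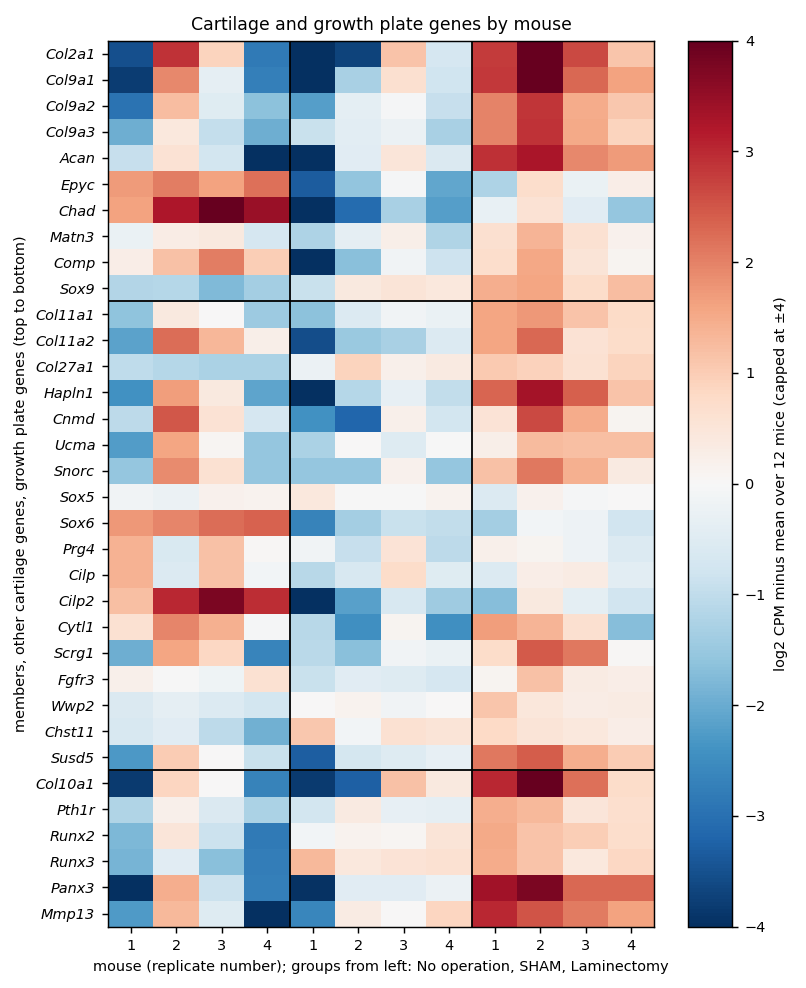
Log2 CPM minus the mean over 12 mice (colour, capped at 4 either way) for the 10 genes, 18 further cartilage genes and 6 growth plate genes, with the groups from left to right No operation, SHAM and Laminectomy. Most rows are red in the Laminectomy columns, whereas *Chad*, *Epyc*, *Sox6* and *Cilp2* are red in the No operation columns.

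Signals of cartilage formation were looked at next. Of 8 ligands, receptors and antagonists, 6 were called lower in SHAM mice, where 25.1% of all genes were, 4 lower after laminectomy, where 24.4% were, and 0 higher by edgeR or DESeq2. *Bmp4* fell from 31.4 CPM to 3.54 in SHAM mice and 5.17 after laminectomy (log2 fold changes -3.15 and -2.60, edgeR adjusted p = 3.27e-06 and 1.02e-05). *Bmp7* fell from 5.02 CPM to 0.941 and 1.64 (-2.41 and -1.61, edgeR adjusted p = 0.00387 and 0.0268). Both are ligands of the BMP family, which induces *Sox9* in the embryo. The 8 genes summed to 65.7 to 83.3 CPM without operation and 18.5 to 31.6 CPM in the operated mice. Skeletal muscle fibre markers fell in the same groups, and the part of muscle in these values was not tested.

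Of 5 cartilage proteases, which cut the matrix, 3 were called higher in SHAM mice and 2 after laminectomy, where 25.7% and 24.2% of all genes were. The log2 fold change after laminectomy was negative for 2 of the 5, and none was called lower. DESeq2 called 3 higher after laminectomy, where it called 49.8% of all genes in either direction. *Adamts4*, an aggrecanase, rose from 7.19 CPM to 83.8 in SHAM mice and 104 after laminectomy (log2 fold changes 3.54 and 3.85, edgeR adjusted p = 0.000682 and 0.000484). *Mmp3*, stromelysin, rose to 247 CPM in the SHAM group and 94 after laminectomy from 30.8 (3.00 and 1.61, adjusted p = 0.00105 and 0.0278 by edgeR). *Acan*, whose product *Adamts4* cuts, averaged 15.3 CPM without operation, 16.1 in SHAM mice and 138 after laminectomy.

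Of 6 collagen receptors, 0 were called higher and 3 lower in SHAM mice, and 1 higher and 2 lower after laminectomy, where 25.7% and 25.1%, and 24.2% and 24.4%, of all genes were called higher and lower. *Itga2*, an integrin chain for collagen on platelets and other cells, fell in both (-0.87, edgeR adjusted p = 0.045, and -0.95, adjusted p = 0.0328). *Itga10*, the integrin chain that binds type II collagen in cartilage, fell in SHAM mice from 25.1 to 10.7 CPM (-1.23, edgeR adjusted p = 0.0173) and was 35.3 CPM after laminectomy, not called. *Itga11*, a receptor for type I collagen on fibroblasts, rose after laminectomy from 59.5 to 143 CPM (1.26, edgeR adjusted p = 0.000853). Of 5 interstitial collagen genes, edgeR called 5 and DESeq2 4 higher in each operated group against No operation (edgeR medians 2.13 and 2.17), where edgeR called 25.7% and 24.2% of all genes higher. Of these, *Col3a1* averaged 3610 CPM without operation, 25800 in SHAM mice and 16200 after laminectomy.

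Among the 14765 genes tested, 5 genes outside the set were most like the median profile of the 10 genes over the 12 mice, by the root mean square distance of centred log2 CPM. These were *Sdk2* (distance 0.51), *Susd5* (0.52), *Col25a1* (0.53), *Enpp6* (0.62) and *Dlx5* (0.70), the last of which encodes a transcription factor of bone and cartilage. *Dlx5* measured 5.51, 7.25, 2.69 and 2.87 CPM after laminectomy and 0.281, 0.909, 0.794 and 0.854 CPM in SHAM mice, with 4.53 CPM in No operation replicate 2. *Susd5* measured 28.6, 36, 18.2 and 13.4 CPM after laminectomy and 0.562, 3.96, 4.61 and 5.18 CPM in SHAM mice. The distances of the 10 genes to their own median ran from 0.78 for *Col9a2* to 2.55 for *Chad*.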

How the data were processed

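Bulk RNA was sequenced from 12 mice. The authors deposited a table of counts per gene, named by gene number and symbol, made per the submitters' processing notes with STAR 2.6.1b and featureCounts 2.0.1 on GRCm38 (mm10); DESeq2 1.30.1 is listed too. These deposited values behave like estimated counts, since 10.22% are not whole, and were rounded, by at most 0.5. The step that made them fractional is not given in the sources used here. The design had assumed counts.

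Genes were filtered with filterByExpr (14765 left, 4231 removed), scaled with TMM and fitted over all mice with edgeR 4.0.16 in R 4.3.3 (glmQLFit, glmQLFTest). Calls needed both an adjusted p (Benjamini-Hochberg) under 0.05 and a log2 fold change of over 0.5 either way. The scripts were tested on simulated data. DESeq2 1.42.0, other scaling, filters and thresholds, a replicate block and leaving out mice were alternatives. Exon lengths, overlaps and positions are from GENCODE vM21, which matched 18331 of the 18996 gene numbers, and sequences from RefSeq (GRCm38.p6). The paper's methods name a stranded library kit and default featureCounts settings, without naming a strand option.

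The members and all gene lists were chosen with earlier results of these data known. Named were all 10 members, 7 set cartilage genes (*Hapln1*, *Col11a1*, *Col11a2*, *Sox5*, *Sox6*, *Prg4*, *Matn1*), per comparison at most 4 called further cartilage genes and at most 2 per other list, by size of change, and the 5 nearest profiles; *Ibsp*, *Mobp*, *Olig2*, *Tcfl5* and *Gm10754* were named after their values were seen, for their part in a sum, a value at 0 or an overlap. The labels do not say that mice were housed or operated apart, and p-values measure the spread between these samples. The floor given where a mouse had no count covers counting error only, whereas the SEs and SDs include the spread between mice.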

Additional observations from a re-analysis of the deposited data

Results flagged for a closer look

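*Sox9* in SHAM replicate 1, at 6.07 CPM, stood apart from the other 3 SHAM mice. Its gap to the nearest of them was 0.876 of the range of the group, above Dixon's critical value for 4 samples. Of 30 groups of 4 mice examined (10 genes in 3 groups), 1 was picked out in this way, and chance picks out about 1 in 20. The same mouse was the lowest SHAM mouse for 9 of the 10 genes.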

How the results depend on the processing

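No called member changed direction in any alternative. Members that were not called turned sign for SHAM against No operation only (*Col2a1*, *Col9a1*, *Col9a2*, *Col9a3* and *Acan*), each time with a mouse left out. With a minimum log2 fold change of 1, called genes fell to 4589 for SHAM and 4323 for Laminectomy against No operation, from 7502 and 7183, by construction, and the calls among members stayed at 4 and 6. DESeq2 called 601 genes, 6 members and 6 further cartilage genes for Laminectomy against SHAM, where edgeR called 0 of each; the cause was not tested. With mice left out in turn, edgeR called 6966 to 7642 genes for SHAM and 6534 to 7416 for Laminectomy against No operation, and 0 to 0 between the operations. Members called were 4 to 4, 4 to 7 and 0 to 0, and further cartilage genes 7 to 12, 6 to 10 and 0 to 0. The count of 12 came without SHAM replicate 3 and that of 4 members without No operation replicate 4. Nothing in the labels pairs the mice by replicate number, so the numbers were not taken as pairs. Same-number mice had correlations of deviations from -0.23 to 0.35 over the 3 comparisons. For Laminectomy against No operation they were 0.19, 0.07, 0.29 and 0.35, where numbers 1, 3 and 4 but not 2 correlated best with their own. Whether mice of the same number were handled together was not tested. With the replicate number as a block 4, 8 and 0 members were called (50.4%, 48.4% and 0% of all genes), *Col9a1* and *Matn3* added for Laminectomy against No operation. Among genes not called, *Col11a1* in SHAM mice turned from -0.15 to 0.02 under the replicate block and ranged from -0.39 to 0.26 with mice left out; for Laminectomy against No operation *Col11a2* ranged from -0.08 to 1.08 and *Sox5* from -0.16 to 0.06, and against SHAM *Prg4* from -0.03 to 0.56.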
